A study of Mus musculus with 6 samples.

Results

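The Siglec family comprised 7 genes of the 54232 genes in the deposited tables, and these were Siglec1, Siglece, Siglecf, Siglecg, Siglech, Cd22, and Cd33. They were chosen by gene symbol, with earlier results of these data known, and 5 of the 7 were among the 11254 genes with enough counts to test. RNA-seq was performed on inflammatory monocytes sorted from the CNS (GFP-CD45+CD11b+Ly6ChiLy6G-) of mixed bone marrow (BM) chimera mice with EAE, a mouse model of multiple sclerosis. Each GFP+ recipient had been lethally irradiated and then reconstituted with equal numbers of BM cells of both genotypes, where WT donors carried CD45.1 and donors without the receptor (Ifnar1-/-) carried CD45.2, and EAE was induced 6 to 7 weeks later. All mice with EAE received recombinant IFN-β (rIFN-β) at 30000 IU daily, and monocytes were collected at the peak of disease. There were 3 WT and 3 Ifnar1-/- libraries, so both groups share the irradiated host, the disease, and the treatment, and no library came from untreated mice. The groups differ in the receptor and in the donor strain with its CD45 allele, and these cannot be told apart. Ages and pooling of the mice are not given in the sources used here, nor is whether same-numbered libraries came from 1 mouse, so p-values measure only the spread between these libraries. IFNAR1 is a chain of the receptor shared by all type I IFNs, and the comparison asks which Siglec transcripts differ between monocytes that carry this receptor and monocytes that lack it.

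Siglecs are cell surface lectins of the immunoglobulin superfamily that bind sialic acids, the sugars that cap many glycans of the host. Most carry inhibitory tyrosine motifs in the cytoplasmic tail, through which they recruit the phosphatases encoded by Ptpn6 and Ptpn11, while a few pair with the activating adaptor encoded by Tyrobp. Siglec1 (sialoadhesin, CD169) is a long macrophage receptor without these motifs that binds sialylated cells and particles, and it is widely known as an IFN-inducible surface protein of monocytes. Siglece and Cd33 belong to the myeloid CD33-related group, Siglecf marks eosinophils and alveolar macrophages, Siglech marks plasmacytoid dendritic cells (pDCs), and Siglecg and Cd22 restrain B cell receptor signalling.

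By GENCODE M21 (GRCm38), 6 of the 7 genes lie on chromosome 7 and Siglec1 lies on chromosome 2. Siglecf, Siglecg, Cd33, and Siglece share a block of 308.8 kb at chr7:43351341-43660161. Promoters are shown for Cd33 and Siglecf, genes of this block whose TPM lay far apart, because they held the longest stretch in common of the 15 pairs of member genes with a promoter entry in RefSeq (GRCm38.p6). Each sequence is the 250 bases before the start annotated by RefSeq, read 5′ to 3′ on the strand of the gene, and the capitals mark the shared stretch of 16 bases. The Cd33 window is chr7:43533172-43533421 on the minus strand and the Siglecf window is chr7:43351091-43351340 on the plus strand. The RefSeq start of Cd33 lies inside the longer span that GENCODE M21 gives this gene, so the window is not upstream of that span.
Cd33: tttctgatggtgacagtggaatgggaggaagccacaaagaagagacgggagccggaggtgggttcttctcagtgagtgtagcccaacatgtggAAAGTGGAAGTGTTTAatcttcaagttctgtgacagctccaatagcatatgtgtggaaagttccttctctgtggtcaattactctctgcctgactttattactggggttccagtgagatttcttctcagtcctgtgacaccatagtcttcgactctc
Siglecf: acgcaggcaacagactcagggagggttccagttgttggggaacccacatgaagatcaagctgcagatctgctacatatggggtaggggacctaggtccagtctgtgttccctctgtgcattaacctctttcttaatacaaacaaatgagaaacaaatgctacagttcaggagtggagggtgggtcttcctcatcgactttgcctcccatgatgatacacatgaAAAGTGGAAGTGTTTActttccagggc
The other pairs shared at most 10 bases in a row. Among 32851 promoter windows of the same length, the stretch occurred on either strand in 2 windows, those of Cd33 and Siglecf. Both strands were also searched for the IFN-stimulated response element written as GAAANNGAAA, which was in 0 of the 6 member genes with an entry and in 2.98% of all windows. The gamma-activated site written as TTCNNNGAA was in the window of Siglech and in 7.02% of all windows. A match is a description of letters and not a bound site, and Siglec1 had no entry.

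The libraries held 4531782 to 7321380 expected counts in WT and 5442568 to 6916101 in Ifnar1-/-, where an expected count is the authors' RSEM estimate of reads per gene. Values below are normalized CPM (counts divided by the library size after TMM scaling) unless another unit is given, and the detection floor, set at 3 counts, was worth 0.410 to 0.662 CPM, which covers counting error only. Levels of different Siglec genes were compared only in TPM, the share of all transcripts that RSEM gives a gene, which corrects for length. Sums of cell type markers and the largest parts of these sums are in normalized CPM, which does not correct for length. In WT library 1 the RNA Rn7s2 took 27.8% of all TPM, against 7.36% to 11.2% in the other libraries, which lowers the TPM of the remaining genes there. Ifnar1 itself measured 153, 126, and 111 in WT and 110, 102, and 109 in Ifnar1-/- libraries, with a log2 difference of 0.28 (adjusted p = 0.360, edgeR). All WT libraries were above all Ifnar1-/- libraries, but the difference was small and did not pass the test. Gene-level counts do not show which part of the gene is deleted.

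Siglec1 was 8.14-fold higher in WT than in Ifnar1-/- monocytes (95% interval 4.51 to 14.7), and it was the 1 member of the family called differentially expressed (DE). A gene was called DE where the adjusted p did not exceed 0.05 and the change was 1.5-fold or more, and 2.13% of the genes tested met this rule, 1.67% with the higher level in WT and 0.462% with the lower. Siglec1 (ENSMUSG00000027322.11, chr2:131069220-131086765, minus strand) had 2575, 972, and 706 counts in the WT libraries and 128, 258, and 133 counts in the Ifnar1-/- libraries. As normalized CPM these were 366, 207, and 139 in WT and 19.5, 43.7, and 24.5 in Ifnar1-/-. The groups did not overlap, and the lowest WT library stood well above the highest Ifnar1-/- library. Such separation with WT higher was seen in 11.1% of genes tested. The means were 237 ± 117 and 29.2 ± 12.8 (SD, n = 3 each), and the spread within groups was wide, with coefficients of variation of 49.1% and 43.7%. On the log2 scale the change was 3.02 (SE 0.38, adjusted p = 0.00177, edgeR quasi-likelihood test), while the two-sided exact permutation test gave p = 0.1, the smallest that 3 libraries against 3 allow. In bulk libraries, fewer cells with a transcript and less of it per cell cannot be told apart.

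**Figure D1:**
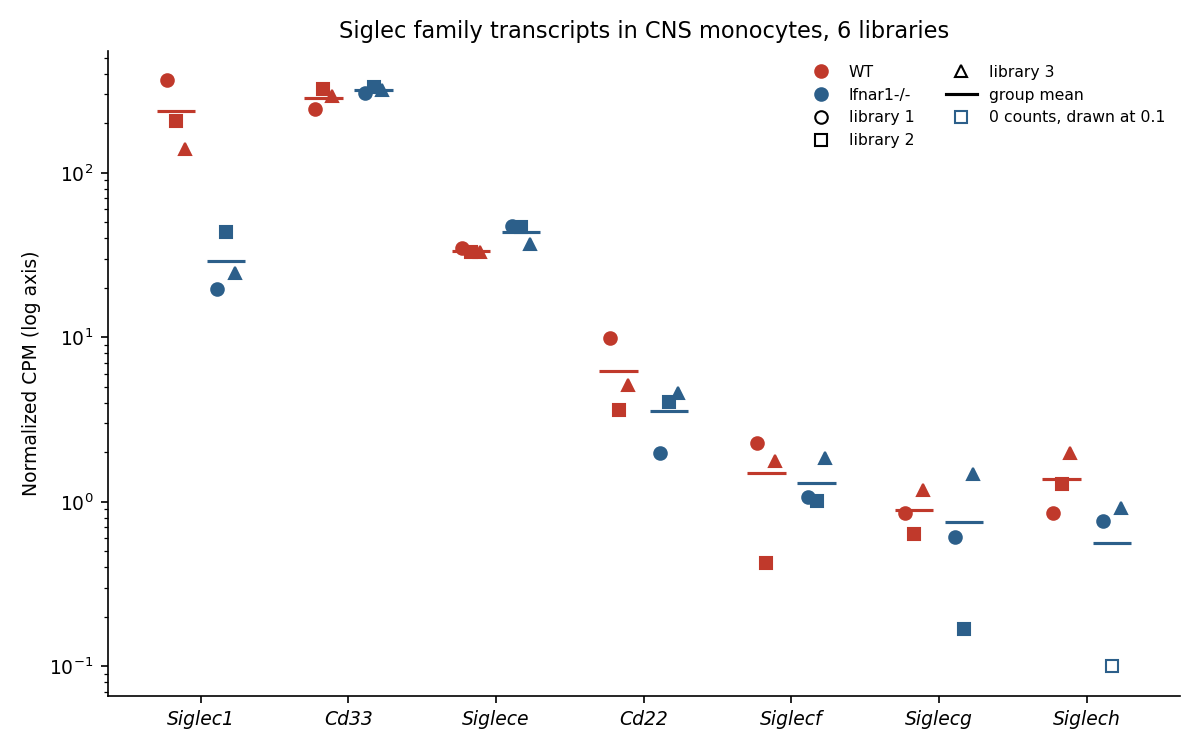
Normalized CPM (log axis) of the 7 Siglec genes in each of 3 WT (red) and 3 Ifnar1-/- (blue) libraries, with marker shape for the library number, bars for group means, and an open square at 0.1 for the 1 library with 0 counts of Siglech. WT libraries sit above Ifnar1-/- libraries without overlap for Siglec1, below them for Siglece, and overlap them for the other 5 genes.

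Siglec1 remained higher in WT when any library was left out, with log2 fold changes of 2.58 to 3.46 and adjusted p of 0.000891 to 0.0196 (edgeR). Without WT library 1, which had the highest value, the difference was 2.58 with an adjusted p of 0.000891. The deposited TPM of Siglec1 were 42.89, 35.32, and 24.00 in WT and 2.77, 8.59, and 3.81 in Ifnar1-/-. Their group means ranked it at percentile 78.8 of the genes tested in WT and at percentile 31.6 in Ifnar1-/-. The gene was thus among the well-expressed transcripts in WT monocytes and still detected in all Ifnar1-/- libraries. Among the 188 genes called higher in WT, it was number 40 by fold change and number 67 by p-value, and their median log2 fold change was 1.60 against -0.01 over all genes tested.

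Genes with profiles closest to that of Siglec1 were sought by the root mean square difference of log2 values, each gene centred on its own mean over the 6 libraries. The nearest was Oasl2, of the oligoadenylate synthetase family of antiviral genes, at 0.283, followed by Oas2, an enzyme of the same family, at 0.356. Phf11a followed at 0.366, Mov10, an RNA helicase, at 0.367, and Slfn5, a Schlafen family gene, at 0.368. Their log2 fold changes were 3.17 for Oasl2, 3.76 for Oas2, 2.73 for Phf11a, 2.60 for Mov10, and 3.32 for Slfn5. With 6 libraries this likeness mostly describes the step between the groups. Within 500 kb of Siglec1, 16 genes were tested, and 1 was called DE, Snrpert, with a log2 fold change of -1.95, opposite to Siglec1. Within the same distance of the other members, 6 to 19 genes were tested and 0 were called.

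Cd33, the member of highest level in TPM in both groups, did not pass the test. The mouse protein lacks the classical inhibitory motif of its human counterpart. Cd33 (ENSMUSG00000004609.11, chr7:43524216-43544428, minus strand) measured 244, 321, and 295 in WT and 307, 331, and 319 in Ifnar1-/- libraries. WT library 1 was the lowest and the groups overlapped. The means were 287 ± 39.4 and 319 ± 12.1 (SD, n = 3 each), and the log2 fold change was -0.16 with a 95% interval of -0.49 to 0.18 (adjusted p = 0.635, edgeR). Its counts, 1493 to 2012 per library, were the least variable of the family in Ifnar1-/- monocytes, with a coefficient of variation of 3.80%. TPM of Cd33 were 61.07, 106.56, and 104.32 in WT and 78.11, 105.72, and 92.54 in Ifnar1-/-, at percentiles 91.7 and 92.0 of the genes tested. Genes of nearest profile were Ccni, Txn1, and Nsmce2, at distances of 0.028, 0.032, and 0.040.

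Siglece, the main inhibitory CD33-related Siglec of mouse myeloid cells, measured lower in WT than in Ifnar1-/- libraries without passing the adjusted threshold. Siglece (ENSMUSG00000030474.9, chr7:43651070-43660161, minus strand) had 35.0, 32.9, and 33.0 in WT and 47.5, 46.6, and 36.8 in Ifnar1-/- libraries. All WT libraries were below all Ifnar1-/- libraries, a separation that 12.2% of genes tested showed in this direction. The means were 33.6 ± 1.18 and 43.6 ± 5.94 (SD, n = 3 each), with a log2 fold change of -0.37 (SE 0.15, 95% interval -0.70 to -0.05). The unadjusted p was 0.0288 and the adjusted p was 0.221 (edgeR), and the exact permutation test gave p = 0.1. An unadjusted p under 0.05 was reached by 17.8% of genes tested. The interval therefore holds differences smaller and larger than 1.5-fold. In TPM the groups overlapped, with 14.99, 20.45, and 21.09 in WT and 24.66, 28.61, and 19.23 in Ifnar1-/-. The nearest profiles were those of Gtf3c6, Mdn1, and Farsb, at distances of 0.043, 0.049, and 0.052.

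**Figure D2:**
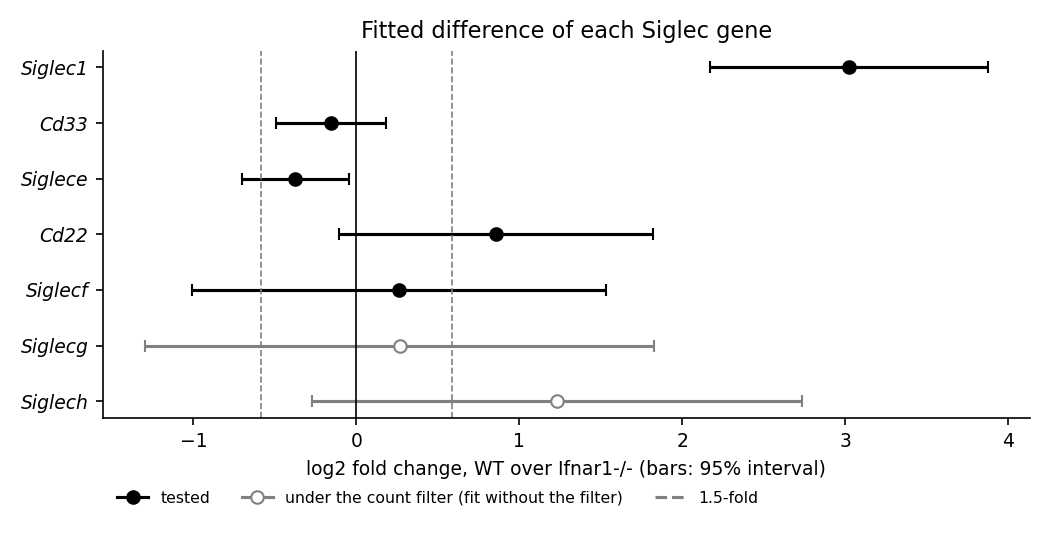
Log2 fold change of WT over Ifnar1-/- for each Siglec gene with its 95% interval, where filled points are genes tested, open points are the 2 genes below the count filter (from the fit without the filter), and dashed lines mark 1.5-fold. Only the interval of Siglec1, 2.17 to 3.87, lies beyond 1.5-fold, and the intervals widen toward the rarely counted genes.

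The 2 members known from B cells were rare. Cd22, an inhibitory co-receptor of B cells, had 70, 17, and 26 counts in WT and 13, 24, and 25 counts in Ifnar1-/- libraries. As normalized CPM, Cd22 (ENSMUSG00000030577.14, chr7:30865402-30880342, minus strand) measured 9.96, 3.61, and 5.13 in WT and 1.99, 4.07, and 4.60 in Ifnar1-/-. WT library 1 was the highest and the groups overlapped. The log2 fold change was 0.86 (95% interval -0.11 to 1.82, adjusted p = 0.331, edgeR), and it was 0.32 without WT library 1. The overlap was gone in TPM, at 3.19, 1.57, and 3.56 in WT and 0.52, 1.32, and 1.16 in Ifnar1-/-, as for 7.11% of genes tested. RSEM assigned the reads of Cd22 to shorter transcripts in WT, with mean transcript lengths of 2407, 2553, and 1679 bases against 3510, 3284, and 3633 bases in Ifnar1-/-. A length that was shorter in every WT library was seen in 3.7% of genes tested. GENCODE M21 lists 16 transcripts of Cd22, of 347 to 3974 bases. With effective length in the fit, the log2 fold change was 1.57 (95% interval 0.54 to 2.60, adjusted p = 0.147, edgeR). An antisense gene that overlaps Cd22, Gm29439, had 0 counts. The genes of nearest profile to Cd22 were Zfhx3, Tnks1bp1, and Gpc1, at distances of 0.116, 0.137, and 0.147.

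Siglecg (ENSMUSG00000030468.12, chr7:43408204-43418358, plus strand), the inhibitory Siglec of B1 cells, had 6, 3, and 6 counts in WT and 4, 1, and 8 in Ifnar1-/- libraries. It did not pass the count filter, and in 2 libraries it was at or below the floor of 3 counts. Without the filter its log2 fold change was 0.27 with a 95% interval of -1.30 to 1.83 (adjusted p = 0.909, edgeR). Of the B cell markers, Pax5, Ebf1, Ighd, and Cr2 were at 0 in all 6 libraries, and the 10 markers summed to 5.95 to 11.1 in WT and 3.56 to 9.93 in Ifnar1-/-, mostly Ighm. Cd79b, which did not pass the count filter, had 11, 7, and 7 counts in WT and 2, 4, and 5 in Ifnar1-/- libraries. It was higher in every WT library, while the groups of the other B cell markers overlapped. The share of 11.1% with such separation covers genes that passed the filter, so it is not a like comparison for Cd79b.

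Siglecf, known from eosinophils, had 16, 2, and 9 counts in WT and 7, 6, and 10 in Ifnar1-/- libraries. As normalized CPM, Siglecf (ENSMUSG00000039013.16, chr7:43351341-43359531, plus strand) measured 2.28, 0.43, and 1.78 in WT and 1.07, 1.02, and 1.84 in Ifnar1-/-. The WT values spanned those of Ifnar1-/-, and WT library 2 was under the floor. The log2 fold change of 0.26 had a 95% interval of -1.01 to 1.53 (adjusted p = 0.855, edgeR), so a difference of 2-fold either way was not detectable at this depth. The 6 eosinophil markers summed to 5.69, 0.425, and 11.3 in WT and 5.19, 0.339, and 2.94 in Ifnar1-/-, lowest in library 2 of both groups. Ccr3, Prg2, and Alox15 were at 0 in those libraries, where Ear6 alone made up the sum, with 2 counts in each. None of the 6 markers passed the count filter. Their part in the level of Siglecf was not tested. Its nearest profiles were Cdk5r1, Fam135a, and Ssbp3, at distances of 0.088, 0.158, and 0.176.

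Siglech, the pDC Siglec that signals through the Tyrobp adaptor, was rare in both groups, and a difference was not detectable at this depth. Siglech (ENSMUSG00000051504.18, chr7:55768178-55778925, plus strand) had 6, 6, and 10 counts in WT and 5, 0, and 5 counts in Ifnar1-/- libraries. As normalized CPM it measured 0.85, 1.28, and 1.97 in WT and 0.76, 0, and 0.92 in Ifnar1-/-. The groups overlapped at the lowest WT library. The count of 0 in Ifnar1-/- library 2 has an upper limit of 0.635 CPM (95% exact binomial interval), where the floor was 0.516 CPM. It did not pass the count filter. Without the filter the log2 fold change was 1.23 with a 95% interval of -0.27 to 2.73 (adjusted p = 0.558, edgeR), and the exact permutation test gave p = 0.2. The 10 pDC markers summed to 77.8 to 106 in WT and 67.7 to 87.2 in Ifnar1-/-. Of these, 3 were tested and 0 called, with 0 at an unadjusted p under 0.05, and most of the sum was Tcf4, at 55.3 ± 10.6 and 41.9 ± 8.16 (SD, n = 3 each). Pacsin1, which did not pass the count filter, had 12, 8, and 8 counts in WT and 0, 4, and 2 in Ifnar1-/- libraries. It was higher in every WT library, while the groups of the other pDC markers overlapped. The share of 11.1% with such separation covers genes that passed the filter, so it is not a like comparison for Pacsin1.

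**Figure D3:**
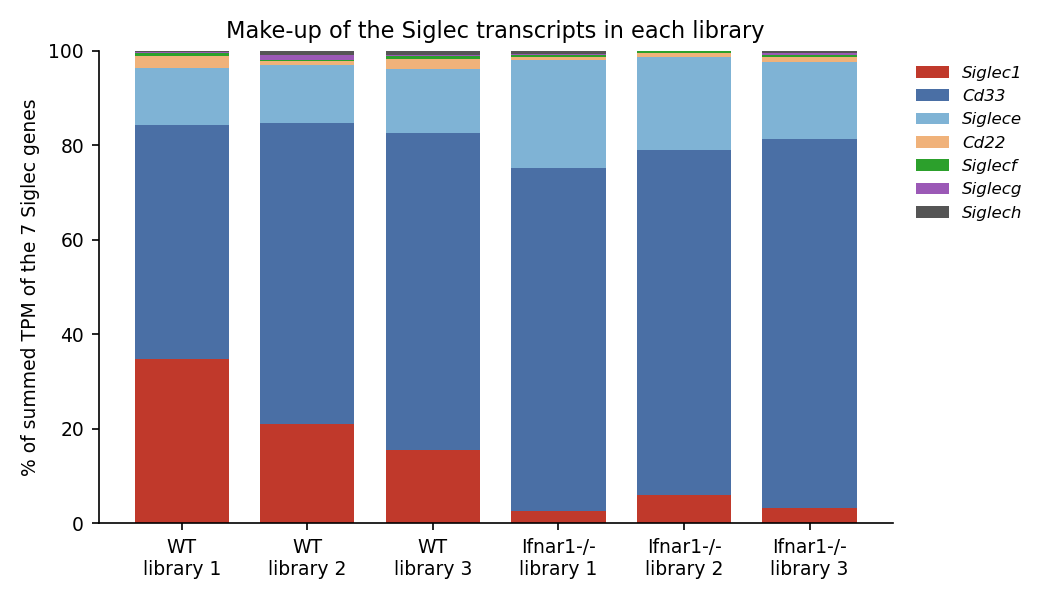
Share of the summed TPM of the 7 Siglec genes that each gene took, in percent, for the 3 WT and 3 Ifnar1-/- libraries. Siglec1 took 15.4% to 34.7% in WT and 2.57% to 5.93% in Ifnar1-/-, and Cd33 was the largest part in all 6 libraries.

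On the TPM scale the order of the genes differed between the groups at the second and the third place. In WT libraries the mean TPM were 90.7 ± 25.6 for Cd33, 34.1 ± 9.51 for Siglec1, 18.8 ± 3.35 for Siglece, and 2.77 ± 1.06 for Cd22 (SD, n = 3 each). In Ifnar1-/- libraries Cd33 was again first at 92.1 ± 13.8, followed by Siglece at 24.2 ± 4.71, Siglec1 at 5.06 ± 3.10, and Cd22 at 1.00 ± 0.42. Within a group, Cd33, Siglec1, and Siglece did not overlap with each other or with Cd22. Siglech, Siglecg, and Siglecf had group means of 0.23 to 1.03 TPM, and no order is given among them. In WT, Siglecg overlapped with Cd22 while Siglecf and Siglech lay below it, and in Ifnar1-/-, Siglecf and Siglech overlapped with Cd22 while Siglecg lay below it.

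The summed TPM of the family was 123, 167, and 156 in WT and 108, 145, and 118 in Ifnar1-/- libraries, and the groups overlapped. Its make-up differed. Siglec1 took 34.7%, 21.1%, and 15.4% of the sum in WT and 2.57%, 5.93%, and 3.22% in Ifnar1-/-. Siglece took 12.1%, 12.2%, and 13.6% in WT and 22.9%, 19.8%, and 16.2% in Ifnar1-/-, without overlap, while Cd33 took 49.5% to 67.1% in WT and 72.6% to 78.2% in Ifnar1-/-. These shares sum to a fixed total, so the lower shares of Cd33 and Siglece in WT go with the higher share of Siglec1. Ratios of TPM within a library do not depend on the scaling between libraries. The TPM of Siglec1 divided by that of Cd33 was 0.702, 0.331, and 0.230 in WT and 0.0355, 0.0813, and 0.0412 in Ifnar1-/- libraries. Divided by the TPM of Siglece, it was 2.86, 1.73, and 1.14 in WT and 0.112, 0.30, and 0.198 in Ifnar1-/- libraries. Siglec1 thus exceeded Siglece in each WT library and in none of the Ifnar1-/- libraries. The TPM ratio of Siglece to Cd33 overlapped, at 0.192 to 0.245 in WT and 0.208 to 0.316 in Ifnar1-/-.

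**Figure D4:**
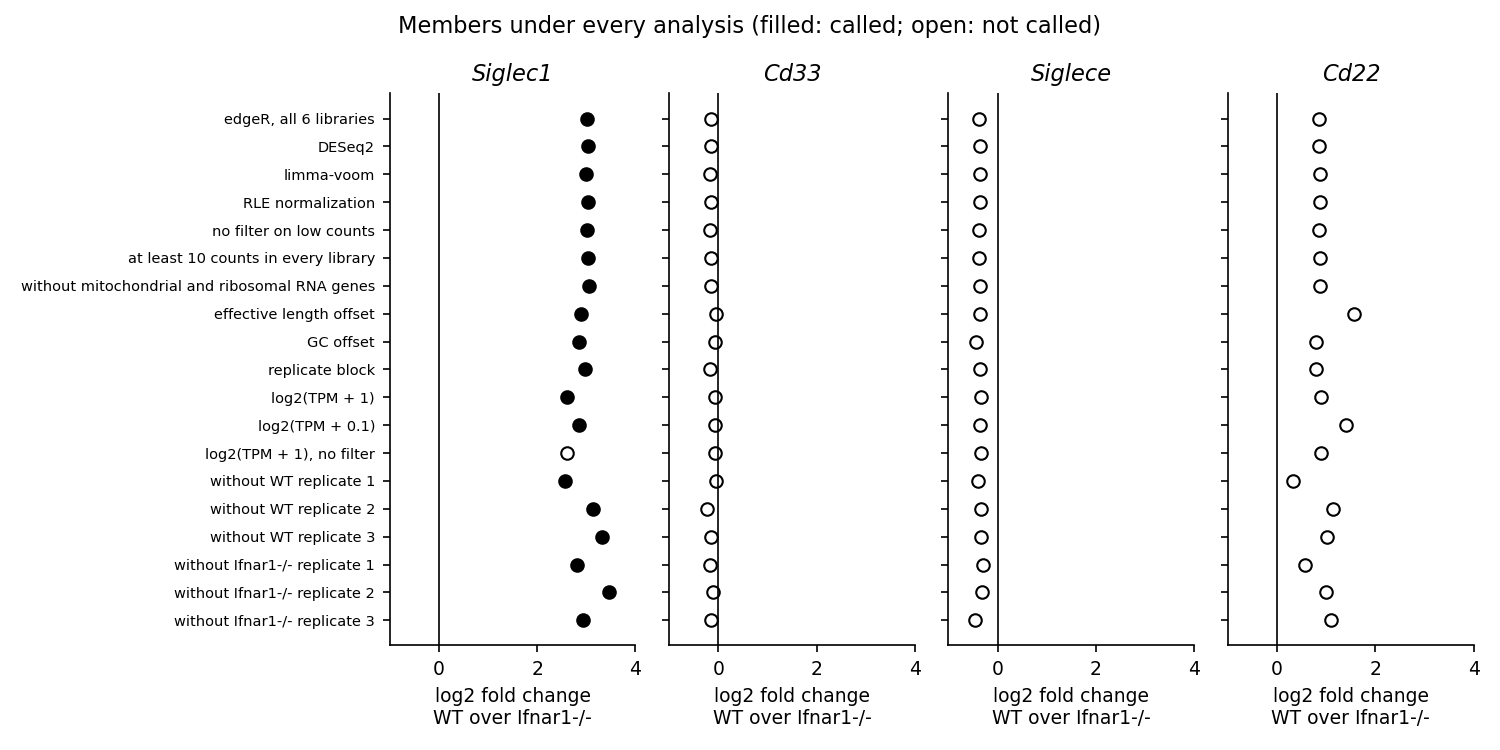
Log2 fold change of WT over Ifnar1-/- for 4 Siglec genes in each analysis, where filled points were called DE and open points were not. Siglec1 is called in each analysis but the one on log2(TPM + 1) with no filter, Cd33 and Siglece stay below 0 without a call, and Cd22 moves between 0.32 and 1.57 without a call.

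Genes that make, transfer, and remove sialic acid or carry Siglec signals were examined as lists of 56 genes, of which 40 were tested. By edgeR, 0 of these 40 were called in either direction, against 2.13% of all genes tested, and 8 had an unadjusted p under 0.05, against 17.8% of all. DESeq2 and limma-voom also called 0. The median log2 fold change of the 40 genes was 0.17, against -0.01 over all genes tested, and 27 were positive. Of the 16 not tested, 7 had no counts in any library. In the fit without a filter on low counts 1 gene was called, Selplg, which encodes the P-selectin ligand, a sialylated glycoprotein. Selplg measured 152 ± 40.4 in WT and 97.9 ± 23.5 in Ifnar1-/- (SD, n = 3 each), with an adjusted p of 0.172 in the fit with the filter.

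For sialic acid synthesis and turnover, 7 of 8 genes were tested, with a median log2 fold change of -0.17. The lowest estimate was that of Nanp, the sialic acid phosphatase, at -0.68 (adjusted p = 0.372, edgeR). Of the most abundant, Renbp, a renin-binding protein and epimerase, measured 45.6 ± 7.63 and 44.8 ± 6.55, Nans, the sialic acid synthase, 32.5 ± 3.31 and 43.1 ± 1.03, and Cmas, which activates sialic acid, 30.1 ± 4.62 and 33.7 ± 1.12, in WT and Ifnar1-/- in this order (SD, n = 3 each). None passed the adjusted threshold, although Nans was lower in every WT library (adjusted p = 0.169, edgeR). Of 20 sialyltransferases, which add the sugars that Siglecs bind, 10 were tested, with a median of 0.19. St3gal4, St3gal1, and St3gal5 led in TPM, with log2 fold changes of 0.18, 0.32, and 0.34. St8sia1, named here after its value was seen, had the highest estimate of the lists, 1.75 (adjusted p = 0.144, edgeR). Its counts were low, at 20, 9, and 10 in WT and 8, 2, and 2 in Ifnar1-/- libraries. It thus passed the count filter through its WT libraries, and Ifnar1-/- libraries 2 and 3 were under the floor of 3 counts. Among genes of sialidases and of sialic acid O-acetylation, 3 of 6 were tested, with log2 fold changes of 0.37 for Neu1, the lysosomal sialidase, -0.41 for Casd1, the O-acetyltransferase, and 0.10 for Siae, the esterase.

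All 15 genes of the Siglec signalling list were tested, and 12 were positive, with a median log2 fold change of 0.22. Tyrobp, the activating adaptor, measured 217 ± 5.65 in WT and 248 ± 11.1 in Ifnar1-/- and was lower in every WT library (log2 fold change -0.20, adjusted p = 0.474, edgeR). Lyn, a kinase that phosphorylates inhibitory motifs, measured 483 ± 61.2 and 497 ± 78.4, and Ptpn6, the phosphatase recruited by them, 330 ± 51.1 and 291 ± 40.3 (SD, n = 3 each). The lowest adjusted p of the lists was 0.118, that of Csk, a kinase that restrains Src family kinases, with a log2 fold change of 0.52. Of the counter-receptor genes, whose products carry sialic acid, Cd52 measured 231 ± 16.6 and 255 ± 17.5 and Cd24a 221 ± 23.4 and 268 ± 24.0, and neither passed. Of the remaining Siglec genes, Mag, the Siglec of myelinating cells, had a log2 fold change of 0.43 (adjusted p = 0.641, edgeR), and Siglec15 had 0 counts in all 6 libraries.

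**Figure D5:**
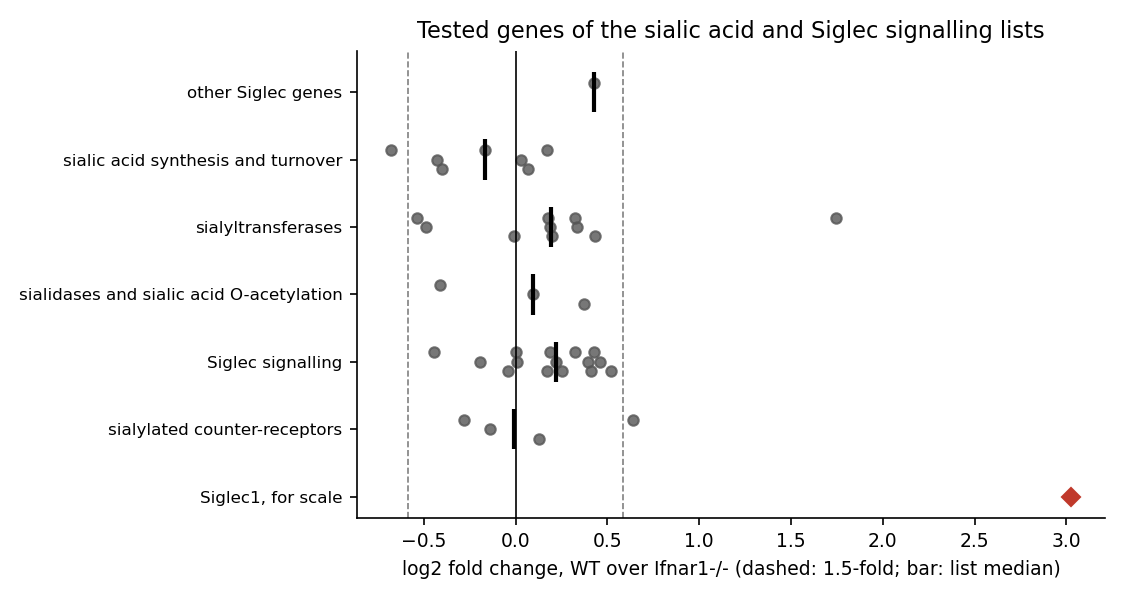
Log2 fold change of WT over Ifnar1-/- for the 40 tested genes of the sialic acid and Siglec signalling lists, 1 grey point per gene, with a black bar for each list's median, dashed lines at 1.5-fold, and Siglec1 in red for scale. All points but those of St8sia1, Selplg, and Nanp lie within the dashed lines.

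Markers of the sorted monocytes and of cells that could be sorted with them were measured beside these results. The 9 monocyte markers summed to 8107 to 9914 in WT and 8551 to 9639 in Ifnar1-/-, led by Lyz2. Of these 9 genes 5 had a positive log2 fold change. An unadjusted p under 0.05 was reached by 4 of them, against 17.8% of all genes tested, and 1 was called, against 2.13%. This was Ly6c2, which encodes the Ly6C antigen used in the sort and was higher in WT (log2 fold change 1.40, adjusted p = 0.00957, edgeR). Ccr2, the chemokine receptor of inflammatory monocytes, was below Ifnar1-/- in every WT library, at 643 ± 53.7 and 989 ± 248 (SD, n = 3 each, log2 fold change -0.62, adjusted p = 0.143, edgeR). It was the 1 marker of the 9 with this separation, against 12.2% of all genes tested. The 3 above in every WT library, against 11.1% of all, were Ly6c2, Fcgr1, and Spi1. Fcgr1 and Spi1 had log2 fold changes of 0.71 and 0.28 and were not called (adjusted p = 0.0839 and 0.390, edgeR). The 8 markers of resident macrophages, cells that carry Siglec1 in lymphoid tissue, summed to 26.3 to 37.6 in WT and 50.3 to 53.8 in Ifnar1-/-. Of these Mrc1 made up most, at 27.6 ± 6.67 and 47.9 ± 3.94 (SD, n = 3 each, adjusted p = 0.0610, edgeR), and Cd163, Lyve1, Cd5l, Timd4, Marco, and Folr2 had 0 to 2 counts per library. The 8 T cell markers summed to 18.5 to 44.0 in WT and 8.64 to 19.7 in Ifnar1-/-, and of 6 tested 0 were called. An unadjusted p under 0.05 was reached by 5 of the 6, against 17.8% of all genes tested. All WT libraries were higher for 4 of them, against 11.1% of all, with Cd3g at a log2 fold change of 1.48 (adjusted p = 0.103, edgeR). Counts in Ifnar1-/- libraries were low, at 12, 2, and 2 for Cd3d and 18, 3, and 10 for Cd3e. Each of the 6 had at least 1 Ifnar1-/- library below the level of the count filter, so passing it depended on WT libraries. Genes that pass in this way tend to be higher in WT, so the shares over all genes tested are not a like comparison. The 6 oligodendrocyte markers summed to 72.3 to 101 and 60.5 to 65.8 without overlap, led by Mbp, whose groups overlapped. Of 3 tested 0 were called, and Cnp was higher in every WT library, with a log2 fold change of 0.87 (adjusted p = 0.0751, edgeR). The 8 microglia markers summed to 68.1 to 90.1 and 87.4 to 91.6, led by P2ry13. The 9 neutrophil markers, led in TPM by S100a9, summed to 336, 762, and 2196 in WT and 977, 851, and 2457 in Ifnar1-/-, a wide spread within both groups. The part of these cells in the levels of the Siglec genes was not tested.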

How the data were processed

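Monocyte RNA from 3 WT and 3 Ifnar1-/- samples was sequenced by the authors with paired-end reads of 75 bases. The deposited labels name a SMARTer Stranded Pico library kit and the paper a TruSeq Stranded kit. Reads were mapped to GRCm38, and the submitters' processing notes name STAR 2.6.0c and RSEM 1.2.31. The authors deposited an expected count (an estimate that need not be whole and is not normalized), TPM, FPKM, and mean transcript lengths per gene in 1 table per sample. The FPKM values deposited by the authors were used in no result. GENCODE M21 matched 54165 of 54232 gene identifiers.

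Expected counts were rounded. All 42 values of the Siglec genes were already whole before rounding. Of 21265 genes with any count, 11254 passed filterByExpr (minimum count 10) and were fitted with edgeR 4.0.16 in R 4.3.3 (TMM, quasi-likelihood test, Benjamini-Hochberg adjustment over all genes tested, no block). The test was checked on simulated data in which every gene had the same spread beyond counting error, unlike these data. Exact permutation tests were two-sided, on log2(normalized CPM + 0.5). Alternatives were DESeq2 1.42.0, limma-voom and limma on log2 TPM (limma 3.58.1), other filters and scalings, effective length, a replicate block, and leaving out each library.

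The members and lists were chosen with earlier results of these data known. Genes named were all members, Ifnar1, the called genes of each list and its up to 3 most abundant others (1 for markers), and the nearest profiles (5 for Siglec1, 3 for others). Rn7s2, Snrpert, Gm29439, St8sia1, Csk, Nanp, and single markers were added with their values in view. A marker of 1 list is not reported here.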

Additional observations from a re-analysis of the deposited data

How the results depend on the processing

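The log2 fold change of Siglec1 was positive in all 18 alternatives. It lost its call in 1 of them, limma on log2(TPM + 1) with no filter (log2 fold change 2.61, adjusted p = 0.0747), where the Siglec genes called fell to 0. Cd33, Siglece, Cd22, and Siglecf kept their direction and were not called in any alternative that gave a value. Siglecf had too few counts for a value with at least 10 counts in every library, in the log2 TPM analyses with a filter, and without WT replicate 1. Over all genes the number called was 240 (188 higher and 52 lower in WT), and it was 420 with DESeq2, 872 with no filter on low counts, 110 on log2(TPM + 1), 109 on log2(TPM + 0.1), and 74 on log2(TPM + 1) with no filter. With effective length in the fit the split was 164 higher and 16 lower. Leaving out 1 library gave 119 to 245. It was 148 without WT replicate 3, 119 without Ifnar1-/- replicate 1, and 120 without Ifnar1-/- replicate 3, and the genes called lower in WT then numbered 7, 7, and 10. They were 26 without WT replicate 1 and 25 without Ifnar1-/- replicate 2. Of the sialic acid and signalling lists, 1 gene was called with no filter. An offset for GC content, added after seeing the data, gave 244 calls. The cause of these changes was not tested.

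Same-numbered libraries deviated from their group means with correlations of 0.097, 0.021, and 0.232, not all above 0.1. Each WT library correlated most with the Ifnar1-/- library of its own number, for WT library 2 by a small margin (0.021 against 0.015). Ifnar1-/- library 2 correlated more with WT library 1 (0.066) than with its own number. Marrow of both genotypes was placed in each recipient, so the groups may share mice, and same-numbered deposits share a further number of unstated meaning, but the sources used here do not say that same-numbered libraries came from 1 mouse. Eosinophil marker sums were lowest in library 2 and neutrophil marker sums highest in library 3 of both groups. Whether the numbers pair the libraries was therefore not settled. With a replicate block 220 genes were called (182 higher and 38 lower in WT), among them 1 Siglec gene, Siglec1, at a log2 fold change of 2.97 (adjusted p = 0.00332), and 0 list genes. Members with under 20 counts per library are limited by depth.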
